A study of Rattus norvegicus with 6 samples.

Results

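The tropomyosin genes, which encode rod-shaped proteins of the actin filament, were Tpm1 (ENSRNOG00000018184), Tpm2 (ENSRNOG00000016731), Tpm3 (ENSRNOG00000017441) and Tpm4 (ENSRNOG00000015496), 4 of 32623 genes listed. They were chosen by symbol, and selected on their measured levels at 12 mmHg against 1 mmHg and on their proportions within each library. That contrast is therefore given here as a description, with no test. All 4 passed the filter on low counts, as did 12742 genes in total. Their deposited values were exact whole numbers (remainder 0) in all 6 libraries, whereas 4.33 to 10.4% of the values of all genes in a library were not. The counts are per gene, so the splice isoforms of a gene were not told apart.

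Tropomyosins are coiled-coil dimers that join end to end and lie along the groove of the actin filament, where they set which myosins, severing proteins and nucleators can reach it. Mammals have the genes Tpm1, Tpm2, Tpm3 and Tpm4, and alternative promoters and splicing yield many isoforms from each. Products of Tpm1 and Tpm2 are best known from muscle and from the stress fibres of contractile cells, and products of Tpm3 and Tpm4 from the general cytoskeleton of many cell types. In sinusoidal endothelium, actin surrounds and shapes the fenestrae, the open pores of the liver's capillary wall.

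RNA was sequenced from primary liver sinusoidal endothelial cells of Han Wistar rats. In both groups they shared a perfused device, Exoliver, with hepatic macrophages, stellate cells and primary hepatocytes, and saw 48 h of flow with a shear stress of 1.15 dyn/cm2. The physiological group was held at 1 mmHg (3 libraries) and the pathological group at 12 mmHg (3 libraries). The labels give neither the animal behind a library nor its age, and nothing says that libraries came from separate cultures, so the spread given here may be technical.

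Library totals ran from 8925149 to 24025406 counts. Levels below are CPM, counts per 1000000 of a library's total after TMM scaling, which corrects totals for a few very abundant genes. The libraries divided by the summed markers of hepatocytes, and also of endothelial cells and several other cell types, in a way that the pressure labels do not follow. The 16 hepatocyte markers together reached 229, 47655 and 40925 CPM across physiological replicates 1, 2 and 3, against 363, 785 and 69525 CPM across pathological replicates 1, 2 and 3. Physiological replicates 2 and 3 and pathological replicate 3 are called below the 3 libraries rich in hepatocyte RNA. They were also the shallower ones, with totals of 17117840, 8925149 and 11426299 counts, against 23649036 to 24025406 counts in the 3 poor libraries. This division and sequencing depth therefore cannot be told apart. All 8 matched pan-endothelial markers passed the filter, with a sum of 787 to 1211 CPM in the 3 poor and 2075 to 2704 CPM in the 3 rich libraries, and Cdh5 (VE-cadherin) ran from 184 to 320 CPM over all 6. Alb (albumin), a hepatocyte product, ran from 44.7 to 28367 CPM. The macrophage markers summed to 42.1 to 509 CPM in the poor and 1012 to 1522 CPM in the rich libraries. Stellate, smooth muscle and mesothelial sums divided in the same way, while platelet and bile duct sums overlapped. The 10 sinusoidal markers summed to 510 to 1577 CPM in the poor and 3411 to 4528 CPM in the rich libraries. Among them the scavenger receptor gene Stab2 stood at 2.79 to 15.3 CPM and 173 to 208 CPM, and Lyve1 at 41.3 to 248 CPM and 1618 to 2015 CPM, while Mrc1 (the mannose receptor), at 37.8 to 416 CPM and 178 to 239 CPM, overlapped. In such bulk libraries, fewer cells of a type and less RNA per cell cannot be told apart.

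The members differed in how they followed this division: Tpm1 and Tpm2 were high in the 3 rich libraries, Tpm3 and Tpm4 were not. The share of all genes high in those libraries was not counted, so nothing particular to Tpm1 and Tpm2 is read here. The promoters are shown as background, and a link between their motifs and this division was not tested. Each sequence is the 250 bases before an annotated RefSeq transcript start of the rat build GRCr8, written 5′ to 3′ on the strand of the gene. The windows lie at chr8:76543416-76543665 (minus strand) for Tpm1, chr5:62575727-62575976 (minus) for Tpm2, chr2:177821115-177821364 (plus) for Tpm3 and chr16:17732484-17732733 (minus) for Tpm4. Capitals mark the TEAD motif GGAATG and the SP1 GC box GGGCGG, on either strand.
Tpm1: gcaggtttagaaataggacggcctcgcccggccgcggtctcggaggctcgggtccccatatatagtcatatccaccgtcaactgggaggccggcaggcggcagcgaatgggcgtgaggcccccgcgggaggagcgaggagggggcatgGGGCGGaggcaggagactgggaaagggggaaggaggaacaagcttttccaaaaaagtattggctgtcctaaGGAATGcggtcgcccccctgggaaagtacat
Tpm2: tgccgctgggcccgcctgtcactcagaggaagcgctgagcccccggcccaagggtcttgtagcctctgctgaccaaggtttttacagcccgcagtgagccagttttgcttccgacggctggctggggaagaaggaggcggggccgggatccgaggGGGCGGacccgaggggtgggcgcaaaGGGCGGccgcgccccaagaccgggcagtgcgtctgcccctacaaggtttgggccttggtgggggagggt
Tpm3: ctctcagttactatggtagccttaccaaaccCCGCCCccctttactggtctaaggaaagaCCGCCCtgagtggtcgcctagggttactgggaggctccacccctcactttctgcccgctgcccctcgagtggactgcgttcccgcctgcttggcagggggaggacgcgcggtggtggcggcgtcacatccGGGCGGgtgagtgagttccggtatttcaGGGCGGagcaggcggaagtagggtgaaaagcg
Tpm4: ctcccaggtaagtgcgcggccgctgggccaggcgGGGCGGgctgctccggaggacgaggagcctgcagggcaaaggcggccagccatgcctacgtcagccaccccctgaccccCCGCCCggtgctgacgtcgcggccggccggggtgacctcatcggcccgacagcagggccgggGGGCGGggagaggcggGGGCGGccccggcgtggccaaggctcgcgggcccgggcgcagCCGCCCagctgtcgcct

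All 4 genes matched by symbol, and the table held 6 windows for them, 3 of which belong to Tpm3. Of the 33469 windows of this length in the table, 12.1% hold GGAATG, 30.5% hold GGGCGG and 12.9% hold the TATA box TATAAA. The cyclic AMP response element TGACGTCA lies in 1.59%. The CArG box bound by SRF (CC, 6 bases of A or T, then GG) lies in 1.5%. Each was searched on both strands. GGAATG, which TEAD factors bind, occurred in the Tpm1 window alone among the 6, at bases 31 to 26 before the start. The GC box occurred 1 time in the Tpm1 window, 2 times in Tpm2, 4 times in the printed Tpm3 window and 5 times in Tpm4. No exact match to the CArG box, TATA box or cyclic AMP element was found in any of the 6 windows. Sites that differ from these letters by a base, such as CArG-like sites, were not counted. The most upstream Tpm3 window, at chr2:177814633-177814882, had none of the 5 motifs and a GC content of 46.8%, against 63.2% in the printed Tpm3 window, 62.4% in Tpm1, 68.8% in Tpm2 and 79.2% in Tpm4. A match describes the letters of the window and does not show that a factor binds there.

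**Figure D1:**
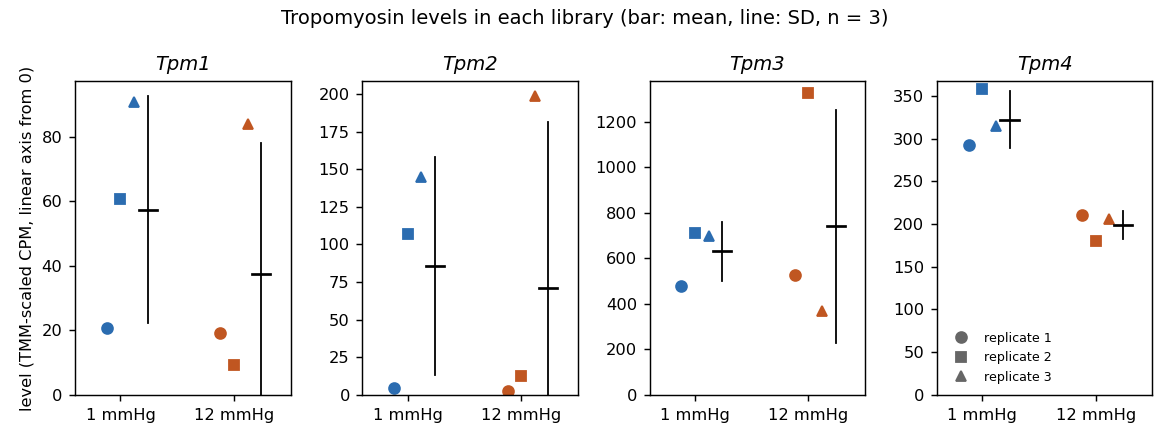
Level of each tropomyosin gene in TMM-scaled CPM (y axis, linear from 0) at 1 and 12 mmHg, with a point for each library, shaped by replicate, the mean as a bar and the SD as a line (n = 3, lines that would pass below 0 are cut off there). Tpm4 is the gene whose groups do not overlap under this scaling, at 293 to 358 CPM against 180 to 210 CPM. In Tpm1 and Tpm2 the libraries of each group lie far apart, and in Tpm3 those at 12 mmHg do.

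Tpm1, the gene of the main striated and smooth muscle tropomyosin and of stress fibre isoforms, spread more widely within each pressure than the means of the pressures lay apart. Taken in the order of replicates 1, 2 and 3, here and below, it stood at 20.7, 60.8 and 90.8 CPM under 1 mmHg and at 19.1, 9.14 and 84 CPM under 12 mmHg. The high values were those of the 3 libraries rich in hepatocyte RNA, and the groups overlapped. The means were 57.4 ± 35.2 CPM (SD, n = 3) at physiological and 37.4 ± 40.6 CPM (SD, n = 3) at pathological pressure, and the fitted log2 fold change, pathological against physiological, was -0.62. It was -2.00 without pathological replicate 3 and -0.13 without physiological replicate 3.

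Tpm2, which encodes beta-tropomyosin of muscle and contractile cells, followed the same division over a wider range. Its level was 4.64, 107 and 145 CPM under 1 mmHg and 2.79, 12.4 and 199 CPM under 12 mmHg. The highest and the lowest of the 6 values both lay at pathological pressure, 71.3-fold apart. The means were 85.4 ± 72.5 and 71.3 ± 110 CPM (SD, n = 3 each), with a fitted log2 fold change of -0.26. This value turned positive when physiological replicate 3 (0.34) or either of the first 2 pathological replicates (0.30 and 0.24) was left out, and it was -3.47 without pathological replicate 3.

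Tpm3, which encodes cytoskeletal isoforms found in most cells and a slow muscle isoform, did not follow hepatocyte RNA. The values were 480, 713 and 698 CPM under 1 mmHg and 529, 1325 and 370 CPM under 12 mmHg. Pathological replicate 2 was the highest and pathological replicate 3 the lowest of all 6. The means were 631 ± 130 and 741 ± 512 CPM (SD, n = 3 each), and the fitted log2 fold change was 0.23. Without pathological replicate 2 it was -0.48. Pathological replicate 2 also had the lowest summed macrophage markers, at 42.1 CPM against 464 to 1522 CPM in the other libraries, and the highest actin values. The part of these in its Tpm3 level was not tested.

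Tpm4, the gene of a low molecular weight cytoskeletal tropomyosin, was the steadiest of the 4 and was lower in each pathological library than in any physiological library under TMM scaling. The values were 293, 358 and 314 CPM under 1 mmHg, against 210, 180 and 206 CPM under 12 mmHg. The means were 322 ± 33.4 and 199 ± 16.5 CPM (SD, n = 3 each), a fitted log2 fold change of -0.70. Of all 12742 genes, 3.05% did not overlap between the groups and were lower at pathological pressure, and 1.56% did not overlap and were higher. As the members were selected on this contrast, nothing is read from Tpm4 being among the former.

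The separation of the Tpm4 groups depended on the scaling. With DESeq2's size factors the values were 300, 331 and 299 CPM against 217, 187 and 214 CPM, and the groups stayed apart, as did 2.64% of all genes in that direction. With library totals alone, they were 372, 363 and 248.1 CPM against 248.5, 161 and 191 CPM. Physiological replicate 3 then lay just under pathological replicate 1, so the groups overlapped by these neighbouring values, while 3.28% of all genes were separate and lower. The log2 fold change was -0.59 with the size factors and -0.71 with library totals. In physiological replicate 3 the TMM factor was 0.79, the lowest of the 6, and in physiological replicate 1 it was 1.27, the highest.

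**Figure D2:**
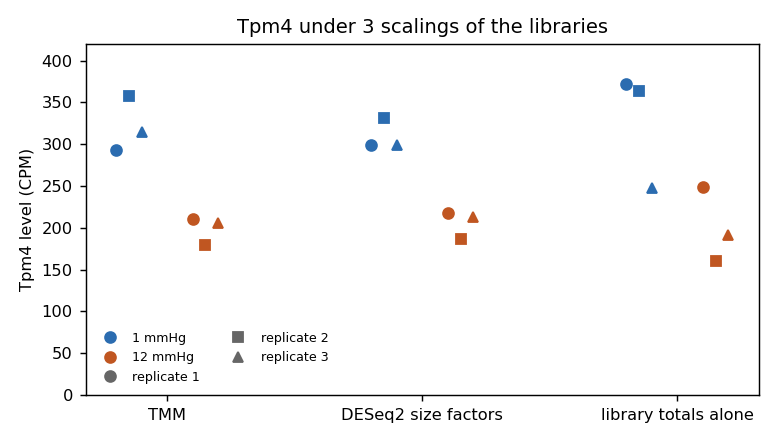
Tpm4 level in CPM (y axis) under TMM scaling, DESeq2 size factors and library totals alone (x axis), with blue points for libraries at 1 mmHg and orange points for libraries at 12 mmHg, shaped by replicate. The 2 colours stay apart under the first 2 scalings and meet near 248 CPM under library totals alone.

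Within libraries of like hepatocyte RNA, Tpm3 changed sign between the poor and the rich libraries. Tpm4 stayed negative in both, which its groups, apart under TMM scaling, all but fixed in advance. Nothing is read from that sign. In the 3 poor libraries, Tpm4 was 293 CPM in physiological replicate 1 and 210 and 180 CPM in pathological replicates 1 and 2, with a fitted log2 fold change of -0.57. In the 3 rich libraries it was 358 and 314 CPM in physiological replicates 2 and 3 and 206 CPM in pathological replicate 3, with a log2 fold change of -0.69. For Tpm3 the corresponding values were 0.95 in the poor and -0.92 in the rich libraries. Tpm2 was at 0.70 and 0.68, both positive although its value over all 6 libraries was negative. Tpm1 was at -0.53 and 0.17. Each of these fits has a group of 1 library, so its spread comes from the other group. In the fit on the rich libraries the median log2 fold change of all genes was -0.58, so Tpm4, at -0.69, lay near that median and Tpm1 and Tpm2 above it. In the poor libraries the median was -0.10. The fit on the rich libraries called 1.93% of its 12652 genes and 0 of the 4 tropomyosins, from which nothing is read.

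**Figure D3:**
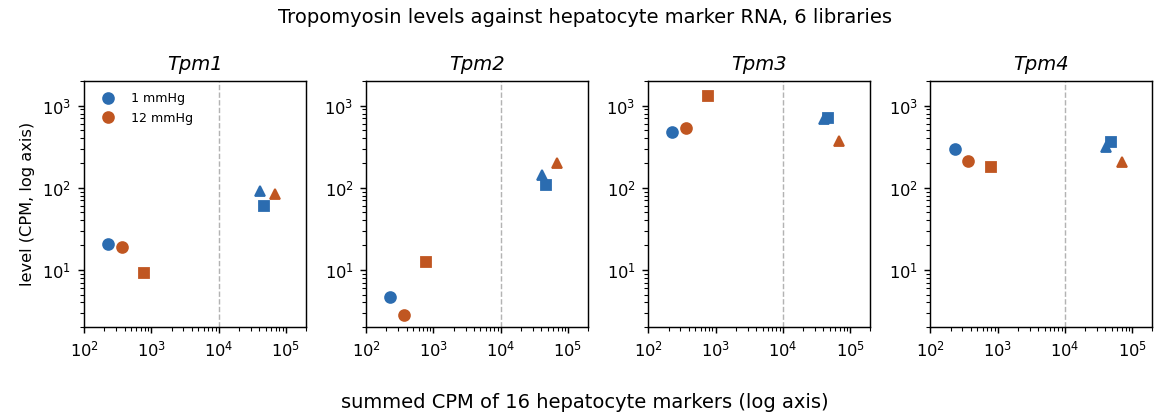
Level of each tropomyosin gene in CPM (y axis, log) against the summed CPM of the 16 hepatocyte markers (x axis, log) in the 6 libraries, blue at 1 mmHg and orange at 12 mmHg, with a dashed line at 10000 CPM. Tpm1 and Tpm2 are higher in the 3 libraries to the right of the line than in the 3 to the left, and Tpm4 differs little across it.

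The 4 genes thus ranked by spread over all 6 libraries as Tpm4, Tpm3, Tpm1 and Tpm2, from narrow to wide. The SD of log2(CPM + 1) was 0.40 for Tpm4, 0.63 for Tpm3, 1.31 for Tpm1 and 2.54 for Tpm2, against a median of 1.19 over 7735 genes with a mean log2 value of at least 3. Of these genes, 5.39% varied less than Tpm4, 18.8% less than Tpm3, 54.4% less than Tpm1 and 88.6% less than Tpm2. The highest value was 1.99-fold the lowest for Tpm4, 3.58-fold for Tpm3 and 9.93-fold for Tpm1.

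The mix of tropomyosins differed from library to library. A gene's share is its percent of the summed counts of the 4 genes. Counts rise with transcript length, so shares are compared between libraries and not between genes. The 95% Wilson interval of a share was at most 1.04 percentage points to either side over all 24 shares, which covers counting error only. The shares rested on 8755 to 32214 tropomyosin counts per library.

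Tpm3 held 60.2%, 57.5% and 56% of the counts under 1 mmHg, and 69.5%, 86.8% and 43.1% under 12 mmHg. The physiological libraries were close together, and the pathological libraries lay on both sides of them. The mean was 57.9 ± 2.12% against 66.5 ± 22% (SD, n = 3 each), a difference of 8.58 percentage points that was -1.59 without pathological replicate 2 and 20.3 without pathological replicate 3. It was 18 in the poor and -13.7 in the rich libraries.

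Tpm4 held 36.7%, 28.9% and 25.2% at physiological and 27.6%, 11.8% and 24% at pathological pressure, so that the groups overlapped. The low share of 11.8% in pathological replicate 2 stands beside the high Tpm3 share in that library. The means were 30.3 ± 5.86% and 21.1 ± 8.29% (SD, n = 3 each), a difference of -9.13 percentage points that was -4.45 without pathological replicate 2.

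Tpm2 held 0.581%, 8.63% and 11.6% of the physiological counts and 0.366%, 0.81% and 23.2% of the pathological counts. In the 3 libraries poor in hepatocyte RNA it stayed under 1%. Tpm1 held 2.59%, 4.91% and 7.28%, and 2.51%, 0.599% and 9.78%. Both shares had their highest value in pathological replicate 3, while pathological replicate 2, at the same pressure, had under 1% of each.

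**Figure D4:**
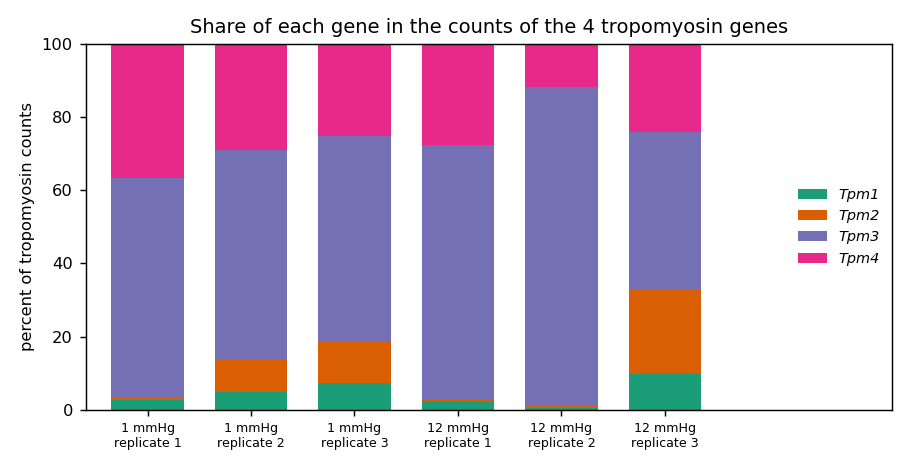
Percent of the summed counts of the 4 tropomyosin genes (y axis) taken by each gene in each of the 6 libraries (x axis), as stacked bars that reach 100%. Tpm1 and Tpm2 form a visible part in physiological replicates 2 and 3 and pathological replicate 3, and Tpm3 takes 86.8% in pathological replicate 2.

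Summed over the 4 genes, tropomyosin RNA was 799, 1239 and 1248 CPM under 1 mmHg and 761, 1526 and 858 CPM under 12 mmHg, with means of 1095 ± 257 and 1049 ± 416 CPM (SD, n = 3 each). The groups overlapped. Set against cytoplasmic actin (Actb and Actg1), there were 20.6, 45.2 and 54.5 tropomyosin counts per 100 actin counts at physiological and 23.3, 25.3 and 30.5 at pathological pressure. Physiological replicate 1 was the lowest of the 6 and lay near the pathological libraries, and the means of 40.1 ± 17.5 and 26.4 ± 3.71 (SD, n = 3 each) differed by less than the spread of the physiological group. The ratio also followed the division by hepatocyte RNA. It was 20.6, 23.3 and 25.3 in the 3 poor libraries, and 45.2, 54.5 and 30.5 in the 3 rich libraries.

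The lists of partner genes covered actin filaments, their motors, regulators and adhesion links, the intermediate filament gene Vim, and transcription regulators of actin genes. These 10 lists held 85 genes, of which 83 matched and 67 were tested. None passed: the edgeR quasi-likelihood test called 0 of 67 partners and 0% of all 12742 genes, with a Benjamini-Hochberg adjusted p of 1.00 for every partner named here. At an unadjusted p under 0.05 there were 0 partners and 33 of all genes. DESeq2 called 0.247% of 16611 genes and 0 of 71 partners. At an unadjusted p under 0.05 DESeq2 had 3 partners and 425 of all genes, so nothing is read from the 3. Of the partners, 38 had positive and 29 negative log2 fold changes with a median of 0.07, against 0.05 over all genes tested. Of the 67, only Acta2 did not overlap between the groups, and it was lower at pathological pressure, as were 3.05% of all genes.

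Actins are the filament that tropomyosins coat. Actb measured 2214, 1535 and 1363 CPM under 1 mmHg and 1933, 3598 and 1749 CPM under 12 mmHg, and Actg1 measured 1657, 1208 and 926 CPM against 1338, 2429 and 1068 CPM. Pathological replicate 2, the highest for Tpm3, was the highest for both actins. Acta2, the alpha-actin of smooth muscle and activated stellate cells, stood at 2.93, 13 and 23.5 CPM against 1.18, 0.616 and 0 CPM, with a log2 fold change of -4.43 and an edgeR adjusted p of 1.00. Acta1, Actc1 and Actg2 had 23, 1 and 2 counts in all libraries together and were not tested.

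Myosin II is the motor whose access to actin tropomyosin governs. Of 11 tested genes of this list, 6 were positive and 5 negative, with a median log2 fold change of 0.01. The light chain Myl6 stood at 367, 2385 and 2403 CPM under 1 mmHg and 414, 388 and 3039 CPM under 12 mmHg. Myl12a stood at 492, 1111 and 1040 CPM, and at 385, 405 and 1216 CPM. Both were high in the same 3 libraries as Tpm1 and Tpm2. Neither passed the test, with log2 fold changes of -0.42 and -0.40.

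The calponin family also binds along actin, and 1 of its 5 tested genes was positive and 4 negative, with a median of -0.44. Tagln2 (transgelin 2) measured 198, 990 and 1042 CPM against 163, 272 and 1212 CPM, again high in the 3 rich libraries. Cnn3 (calponin 3) was even, at 368, 506 and 483 CPM against 355, 384 and 483 CPM.

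Tropomodulins cap the slow end of filaments by binding tropomyosin, and 2 of 5 listed genes were tested. Tmod3, the ubiquitous member, stood at 221, 131 and 30.2 CPM against 257, 282 and 47.6 CPM, highest in the 3 libraries poor in hepatocyte RNA, the reverse of Tpm1 and Tpm2. Tmod1, the member of red cells and muscle, stood at 4.74, 28.6 and 18.1 CPM against 3.65, 8.48 and 0.0948 CPM. Troponins, which regulate tropomyosin in striated muscle, were low, with 2 of 8 genes tested. Tnni3 reached 20.7 CPM and Tnnc2 27.9 CPM, each in a physiological library, and their summed list ran from 1.57 to 45.2 CPM over the 6 libraries. In pathological replicate 3 the list summed to 21.5 CPM with Tnni3 and Tnnc2 at 0, so that sum came from troponin genes that were not tested.

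Severing proteins compete with tropomyosin for the filament. Of 6 tested, 4 were positive and 2 negative, with a median of 0.19. Cfl1 (cofilin) measured 770, 1001 and 1294 CPM against 836, 1855 and 1111 CPM. Dstn (destrin) measured 452, 424 and 615 CPM against 467, 739 and 362 CPM. In both genes pathological replicate 2 was the highest, as for Tpm3 and the actins.

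Nucleators build the filaments. The Arp2/3 complex, which makes branched networks, had 3 positive and 6 negative genes of 9 tested and a median of -0.09, with Arpc2 at 676 to 1196 CPM and Arpc1b at 251 to 448 CPM over the 6 libraries. Formins, Ena/VASP proteins and profilins had 8 positive and 4 negative genes of 12, with a median of 0.21. Pfn1 (profilin) ran from 426 to 1264 CPM, and the formin Diaph1 from 51.5 to 246 CPM, highest in the 3 libraries poor in hepatocyte RNA.

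Crosslinkers and adhesion links had 7 positive and 2 negative genes of 9, with a median of 0.12. Actn4 (alpha-actinin 4) stood at 920, 480 and 296 CPM against 936, 1362 and 326 CPM, lower in the 3 rich libraries, and Tln1 (talin) ran from 330 to 749 CPM. In the list of SRF, MRTF and TEAD regulators, which drive many actin genes, 6 were positive and 2 negative of 8 tested, with a median of 0.60. This median was 1.61 without physiological replicate 1 and 0.13 without physiological replicate 3, and it was negative within the poor (-0.34) and within the rich libraries (-0.57). Srf measured 51.2, 38.2 and 91.1 CPM against 36.7, 39.6 and 62.5 CPM, and Wwtr1 (TAZ) measured 51.4, 30.1 and 7.70 CPM against 42.2, 42.6 and 20.6 CPM.

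**Figure D5:**
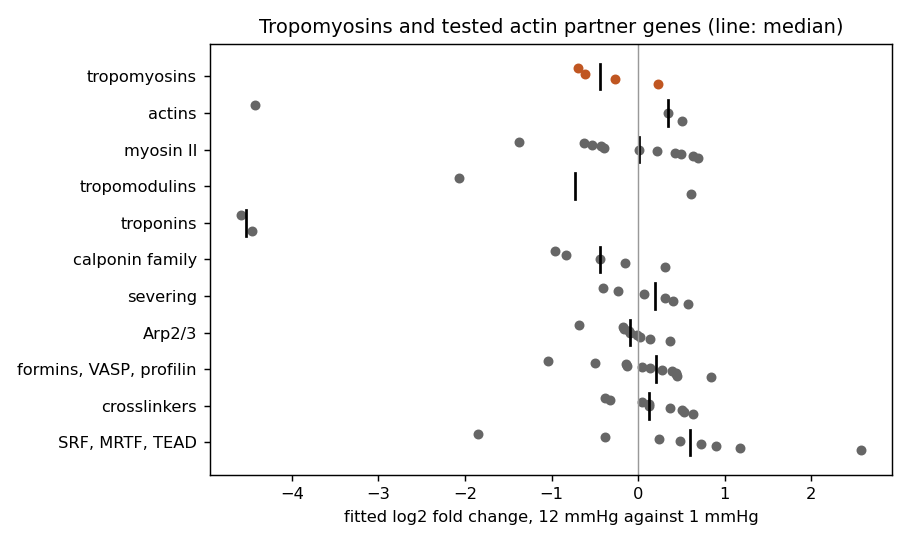
Fitted log2 fold change, 12 mmHg against 1 mmHg (x axis), of the 4 tropomyosins (orange) and of the 67 tested actin partner genes (grey) by list (y axis), with a line at each list's median. Most lists have points on both sides of 0, the tropomyosin median is -0.44, and the far points on the left are Acta2 and the troponins at low counts.

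Tropomyosin is abundant in contractile cells, so the levels of their markers are given beside Tpm1 and Tpm2. The stellate list summed to 543, 1191 and 1180 CPM under 1 mmHg and 438, 468 and 1454 CPM under 12 mmHg, with 9 of its 13 genes tested. Des (desmin), a stellate and muscle filament protein, stood at 1.32, 86.8 and 113 CPM against 0.858, 4.26 and 210 CPM, high in the same libraries as Tpm2. Pdgfrb (the stellate growth factor receptor) stood at 4.38, 18.1 and 61.1 CPM against 0.501, 0.9 and 0 CPM, so pathological replicate 3 had the highest Tpm2 with no Pdgfrb or Acta2 counted.

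The smooth muscle list summed to 47.7, 291 and 198 CPM against 49.3, 123 and 457 CPM, with 4 of 8 genes tested. Its defining gene Myh11 was at 4.67, 0 and 0.142 CPM against 3.36, 1.04 and 2.46 CPM, and Cnn1 had 25 counts in all libraries. Platelets hold much Tpm4, and the platelet list summed to 3.99 to 26.2 CPM, with Pf4 at 0 in 3 libraries and at most 4.94 CPM. Macrophage markers Cd68 and Clec4f ran from 5.59 to 185 CPM and from 7.9 to 276 CPM. The bile duct list summed to 6.39 to 91.9 CPM and the mesothelial list to 0 to 38.6 CPM. The part of these cell types in the tropomyosin levels was not tested.

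The genes with the most similar pattern were sought among the 7735 genes with a mean log2(CPM + 1) of at least 3, by the root mean square difference of values centred on each gene's own mean over the 6 libraries. The nearest genes lie far below the median difference by construction. The pattern they match includes the pressure contrast that chose the members, so nothing is read from their closeness or their values by pressure. For Tpm4 they were Rap1gds1 (0.13), LOC103694876, Gnl1, Cc2d1a and Rnf114 (0.16), against a median of 1.12 over the 7735 genes. Rap1gds1, which binds small GTPases, stood at 66.3, 98.6 and 68 CPM under 1 mmHg and 46.1, 39.9 and 41.8 CPM under 12 mmHg. For Tpm3 they were Rab7a (0.13), LOC108348080, Adrm1, LOC100363502 and Dnajc2 (0.16), with a median of 1.27. Rab7a, a GTPase of late endosomes, stood at 733, 955 and 1015 CPM against 852, 1956 and 658 CPM.

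For Tpm1 the nearest were Mrps23 (0.17), Fli1, Zfp637, AC135696.1 and Acap3 (0.19), with a median of 1.63. Fli1, an ETS factor of endothelial and blood cells, stood at 23.1, 52.1 and 70.8 CPM against 16.8, 7.72 and 87.6 CPM. For Tpm2 they were Gapdh (0.21), Hao1, Gstz1, Abca8a and Cmbl (0.34), with a median of 2.60. Hao1, a peroxisomal oxidase of hepatocytes, stood at 0.79, 37.6 and 82.7 CPM against 0.536, 3.17 and 79.9 CPM. Gapdh has near-identical copies in the genome, so its counts are uncertain. Between members, the closest pair was Tpm3 and Tpm4 at 0.72 and the farthest Tpm2 and Tpm3 at 2.45, while Tpm1 and Tpm2 were 1.42 apart, so no member was among another's nearest genes.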

How the data were processed

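Each deposited file lists the expected counts of 1 library by gene, estimated from reads and unscaled, per the file headers. The submitters' processing notes list the tools STAR, RSEM and limma and give no version of any. Which build, gene annotation and strand setting were used is not given in the sources used here. Per the labels' protocols, single-end libraries were made from total RNA with a Universal Plus mRNA-Seq kit.

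Counts were rounded and compared across all genes with edgeR 4.0.16 (quasi-likelihood F-test, TMM scaling, filterByExpr, no covariate) in R 4.3.3. P-values were two-sided and Benjamini-Hochberg adjusted over 12742 genes, with a threshold of 0.05. DESeq2 1.42.0 was an alternative. Shares used the deposited counts. Replicate numbers follow deposition order, and the labels state no pairing of libraries across the pressures. No 2 libraries of a group agreed within sampling noise (chi-square per degree of freedom 198 to 1100).

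The members and all lists were chosen with earlier results of these data known. Named partners were the 2 with the highest level in each list and any whose groups did not overlap. For likeness, 5 genes per member were named. Of the list symbols, 2 matched through RefSeq synonyms, 1 matched the first of several identifiers and 5, Pecam1 among these, were not matched. Rat promoter windows came from RefSeq (GRCr8), used with no link to the authors' build.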

Additional observations from a re-analysis of the deposited data

How the results depend on the processing

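The count of genes called between the pressures was 0 in all edgeR fits on 5 or 6 libraries and in the fit on the 3 libraries poor in hepatocyte RNA, with 19 to 827 genes at an unadjusted p under 0.05, the most without pathological replicate 3. It was 244 with only the 3 libraries rich in hepatocyte RNA (50 higher and 194 lower) and 41 with DESeq2 (9 higher and 32 lower). The Tpm4 log2 fold change stayed negative in all 12 alternatives. As its groups do not overlap under TMM scaling, leaving out libraries could hardly change that sign, and nothing is read from it. With 1 library left out, the log2 fold change ran from -2.00 to -0.13 for Tpm1, from -3.47 to 0.34 for Tpm2 and from -0.48 to 0.57 for Tpm3. That of Tpm3 was 0.95 in the poor and -0.92 in the rich libraries. In the rich libraries the share differences, pathological minus physiological, were 3.69 percentage points for Tpm1, 13 for Tpm2 and -13.7 for Tpm3, and in the poor libraries they were 18 for Tpm3 and -17 for Tpm4. Over all 6 they were -0.63, 1.17, 8.58 and -9.13 for Tpm1, Tpm2, Tpm3 and Tpm4. With 1 library left out they ran from -3.37 to 1.22, -6.35 to 5.05, -1.59 to 20.3 and -12.4 to -4.45. The share differences changed sign in 8 alternative values and kept it in 24, with no change of sign for Tpm4. The fold changes of named partner genes changed sign in 37 alternative values and kept it in 215, and the medians of the partner lists did so in 30 and 90. The causes were not tested. Shares weighted by transcript length were not run, as the tables used here give no transcript lengths. DESeq2's size factors moved the median log2 fold change of all genes from 0.05 to 0.15, and leaving out physiological replicate 1 moved it to 0.30. The lowest count behind a member's value was 78, for Tpm2 in pathological replicate 1.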

Other observations

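Some other contractile genes, chosen after their values were seen, were high in the same 3 libraries as Tpm2. The share of all genes high in those libraries was not counted, so nothing particular to contractile genes is read here. Myl9, the regulatory light chain of contractile myosin, stood at 1.84, 361 and 468 CPM under 1 mmHg and 3.29, 6.3 and 563 CPM under 12 mmHg. Mylk, its kinase, stood at 12, 189 and 158 CPM against 2.11, 3.88 and 132 CPM. Tagln (transgelin) stood at 7.44, 57.6 and 59.3 CPM against 1.54, 0.189 and 153 CPM, and Cald1 (caldesmon, an actin binder that works with tropomyosin) at 82.2, 259 and 364 CPM against 34.4, 19.6 and 308 CPM. Other genes of the same lists did not follow. Rock1 and Rock2, kinases that promote myosin activity, were higher in the 3 libraries poor in hepatocyte RNA, as was the myosin phosphatase subunit gene Ppp1r12a. Rock2, for example, stood at 406, 115 and 116 CPM against 369, 538 and 119 CPM, and Acta2 and Myh11 (given above) did not follow Tpm2 either. The mechanosensing cofactor Yap1 lay the other way, at 36.2, 17.9 and 2.99 CPM against 36.5, 57.9 and 0 CPM. None of the genes named here was called by edgeR.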
